A study of Mus musculus with 28 samples.

Results

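After depletion of EHMT2, 806 stretches of the mouse autosomes lay inside an H3K9me2 domain of 2-cell-like cells (2CLCs) and outside every domain of the other sorted conditions. These regions were chosen by the domain positions alone. A base was kept when it lay in a domain of 2CLCs treated with dTAG and in no domain of mESCs treated with DMSO, mESCs treated with dTAG or 2CLCs treated with DMSO, segments under 1 kb apart were joined, and runs of at least 25 kb on chromosomes 1 to 19 were retained. The 4 sorted sets together hold 22791 domains on these chromosomes, 8281 of them in 2CLCs treated with dTAG. The regions cover 33.7 Mb, which is 1.37% of the 2463 Mb of chromosomes 1 to 19 and 2.93% of the bases in domains of 2CLCs treated with dTAG. Because the presence or absence of a domain in each set defined the regions, that pattern is a description and not a result.

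All sorted cells came from the line EHMT2-dTAG-mcherry MERV-GFP, mouse embryonic stem cells (mESCs) of a BL6/129 hybrid genotype grown in FBS/LIF, and the study's methods state that 1 clone was used. Every group, the DMSO controls included, carries the degron tag on EHMT2. dTAG-13 directs the tagged protein to degradation and DMSO is its solvent. After 72 h of either treatment the cells were sorted on a GFP reporter driven by the retroviral element MERVL into MERVL- mESCs and MERVL+ 2CLCs, and each of the 4 conditions has 3 H3K9me2 immunoprecipitation libraries and 3 input libraries made by ULI-NChIP, which immunoprecipitates native chromatin from few cells. A further 2 immunoprecipitation and 2 input libraries came from unsorted mESCs after 24 h in DMSO. The labels state that the retinoic acid receptor agonist TTNBP accompanied 2 of the replicates, without saying which, whereas the study's methods describe it without such a limit, so agonist exposure cannot be told apart between replicates or conditions. Domain positions hold no expression values, and the sorted cell states could not be checked against their markers. Each condition is represented by a single list of domain positions with no value per replicate, and the depth of its libraries is unknown. Domains were called from percentiles of the signal, so a domain found only after depletion cannot be read as a rise in H3K9me2. The study reports that H3K9me2 fell globally after depletion in both cell states. No spread between cultures can be given for any value below, and no difference between sets was tested.

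H3K9me2 is a histone mark of repressed chromatin that lies in broad domains, often over gene-poor and repeat-rich sequence and at the nuclear periphery. EHMT2, also called G9a, forms a complex with EHMT1 that places most of this mark in euchromatin, while SUV39H and SETDB1 enzymes methylate H3K9 elsewhere. 2CLCs are a rare and transient state of mESC cultures in which MERVL elements and genes of the 2-cell embryo are active.

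The promoters of genes at the centre of the regions with the most gene starts are given first. They show what kind of start site lay inside a domain in this condition alone. Each is 300 bases long, 250 before and 50 after the annotated start, on the gene's own strand in GRCm38.p6 from RefSeq, with every CG dinucleotide in capitals. They belong to the zinc finger gene Zfp579 (chr7:4996052-4996351, minus strand), the histone H4 gene Hist1h4d (H4c4 in RefSeq, chr13:23581318-23581617, plus strand), Mfap1b, whose protein associates with the spliceosome (chr2:121473974-121474273, minus strand), and the immune receptor gene Cd300ld5 (chr11:115037641-115037940, minus strand).
Zfp579: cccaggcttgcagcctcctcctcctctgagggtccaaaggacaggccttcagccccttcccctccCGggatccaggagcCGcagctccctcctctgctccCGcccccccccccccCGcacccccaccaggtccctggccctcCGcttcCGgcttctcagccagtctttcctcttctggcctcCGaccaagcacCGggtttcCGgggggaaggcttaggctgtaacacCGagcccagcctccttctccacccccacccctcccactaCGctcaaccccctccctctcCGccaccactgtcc
Hist1h4d: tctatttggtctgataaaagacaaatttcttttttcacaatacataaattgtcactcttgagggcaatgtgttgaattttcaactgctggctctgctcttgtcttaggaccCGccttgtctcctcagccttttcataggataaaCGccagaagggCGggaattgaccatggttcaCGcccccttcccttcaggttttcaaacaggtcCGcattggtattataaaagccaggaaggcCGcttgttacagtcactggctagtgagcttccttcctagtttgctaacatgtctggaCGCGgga
Mfap1b: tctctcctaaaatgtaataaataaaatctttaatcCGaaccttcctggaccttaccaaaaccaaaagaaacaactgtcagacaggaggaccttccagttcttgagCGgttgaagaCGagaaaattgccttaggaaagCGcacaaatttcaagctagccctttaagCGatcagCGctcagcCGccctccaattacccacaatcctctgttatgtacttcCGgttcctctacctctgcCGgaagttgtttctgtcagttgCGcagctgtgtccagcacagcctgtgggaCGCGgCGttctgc
Cd300ld5: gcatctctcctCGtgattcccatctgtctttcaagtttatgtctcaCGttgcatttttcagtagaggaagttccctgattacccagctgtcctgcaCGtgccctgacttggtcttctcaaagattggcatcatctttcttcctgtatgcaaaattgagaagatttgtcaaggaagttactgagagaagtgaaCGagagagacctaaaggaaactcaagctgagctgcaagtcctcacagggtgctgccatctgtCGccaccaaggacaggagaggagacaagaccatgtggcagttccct
The 4 windows hold 12, 8, 13 and 5 CG dinucleotides in that order. The Cd300ld5 window has the fewest, and the Zfp579 and Mfap1b windows exceed 10, a count reached by 44.0% of the 31396 promoters of chromosomes 1 to 19 in the RefSeq table, which also covers lncRNA genes. Among the 13867 of 20807 protein-coding genes with a matched promoter, 64.6% reached it, so such a count is common at the matched protein-coding starts.

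A second group comes from gene lists with at least 3 starts in the regions, shown to set a histone start beside housekeeping and receptor starts. Hist1h2ae (H2ac8 in RefSeq) encodes histone H2A (chr13:23571171-23571470, minus strand), and its window runs into the neighbouring H2B gene Hist1h2bg, which is transcribed in the other direction. Ndufa3 encodes a subunit of respiratory complex I (chr7:3617123-3617422, plus strand), Prpf31 a spliceosome component (chr7:3629735-3630034, plus strand) and Olfr286 an olfactory receptor (chr15:98234401-98234700, minus strand).
Hist1h2ae: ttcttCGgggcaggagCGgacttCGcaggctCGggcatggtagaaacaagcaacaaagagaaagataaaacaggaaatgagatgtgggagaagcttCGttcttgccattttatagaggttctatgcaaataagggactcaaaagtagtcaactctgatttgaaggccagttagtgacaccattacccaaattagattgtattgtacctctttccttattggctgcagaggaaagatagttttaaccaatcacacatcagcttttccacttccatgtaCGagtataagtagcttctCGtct
Ndufa3: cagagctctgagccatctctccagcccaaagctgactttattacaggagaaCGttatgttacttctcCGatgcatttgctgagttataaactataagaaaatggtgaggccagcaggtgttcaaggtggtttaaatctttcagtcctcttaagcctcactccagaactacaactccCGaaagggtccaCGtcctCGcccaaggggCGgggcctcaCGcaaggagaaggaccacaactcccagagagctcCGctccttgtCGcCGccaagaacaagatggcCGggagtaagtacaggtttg
Prpf31: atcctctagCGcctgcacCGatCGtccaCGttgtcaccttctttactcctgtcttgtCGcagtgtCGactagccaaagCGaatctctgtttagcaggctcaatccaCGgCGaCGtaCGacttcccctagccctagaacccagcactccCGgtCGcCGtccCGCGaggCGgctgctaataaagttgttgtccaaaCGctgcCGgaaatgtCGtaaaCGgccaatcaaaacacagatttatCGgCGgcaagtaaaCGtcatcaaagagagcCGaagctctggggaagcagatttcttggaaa
Olfr286: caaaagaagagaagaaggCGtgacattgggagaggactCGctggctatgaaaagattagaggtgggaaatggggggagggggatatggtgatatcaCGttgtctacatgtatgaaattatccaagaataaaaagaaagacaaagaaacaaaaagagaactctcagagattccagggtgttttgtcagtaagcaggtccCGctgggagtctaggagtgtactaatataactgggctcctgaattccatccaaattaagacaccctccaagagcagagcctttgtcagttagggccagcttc
CG dinucleotides number 7 in the Hist1h2ae window, 11 in that of Ndufa3, 25 in that of Prpf31 and 4 in that of Olfr286. Starts rich in CG and starts poor in CG were thus both present among the regions.

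The regions were narrow. Their median width was 35 kb, the bins of the domain call being 5 kb. Widths of 25 kb were the commonest with 206 regions, 150 regions spanned 30 kb, 95 spanned 35 kb and 85 spanned 40 kb. Widths of at least 50 kb, allowing 1 kb for window starts that drift by 1 base, were reached by 202 regions (25.1%), and at least 100 kb by 19. The widest measured 400 kb and the next 220 kb. Just inside the threshold, the 206 regions of 25 kb had a median GC content of 43.5% and 12.8 protein-coding gene starts per Mb. Just outside it lay 261 runs from 20 to under 25 kb, 10 of them 1 base short of 25 kb, with a median GC content of 44.2% and 10.4 starts per Mb. Without a minimum there were 2495 runs with 51.2 Mb, of which the regions hold 65.8%.

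Most regions were whole domains rather than outgrowths of a shared domain. In 508 of the 806 regions (63.0%, 95% Wilson interval 59.6 to 66.3) the 2CLC dTAG domain ended at both ends of the region, within 1 kb, and these are called islands. A further 277 (34.4%) were extensions, in which the domain ended on 1 side and on the other ran on into bases shared with another sorted set. The remaining 21 (2.61%) were bridges with shared bases on both sides. The median width was 35 kb in all 3 kinds, and the domain that holds the region had a median width of 35 kb for islands, 85.0 kb for extensions and 185 kb for bridges. The interval counts regions as independent draws and says nothing of differences between cultures. The share of islands also varied with the minimum run. Islands were 130 of the 206 regions of 25 kb, 137 of the 261 runs from 20 to under 25 kb, and 46.5% of runs of at least 10 kb. The share of islands was lower in regions unique to mESCs treated with dTAG or to 2CLCs treated with DMSO. Regions found only in mESCs treated with DMSO were the most numerous, 1023, and their ends were not classified. By the same rule, 69 of 312 regions found only in mESCs treated with dTAG (22.1%, 17.9 to 27.0) were islands. So were 137 of 496 found only in 2CLCs treated with DMSO (27.6%, 23.9 to 31.7). These shares were set side by side without a test, and 2CLCs treated with dTAG also had more and narrower domains (8281, median 55 kb) than mESCs treated with dTAG (6770, 60.0 kb) or either DMSO set (3870 in each, with medians of 145 kb for mESCs and 120 kb for 2CLCs).

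**Figure D1:**
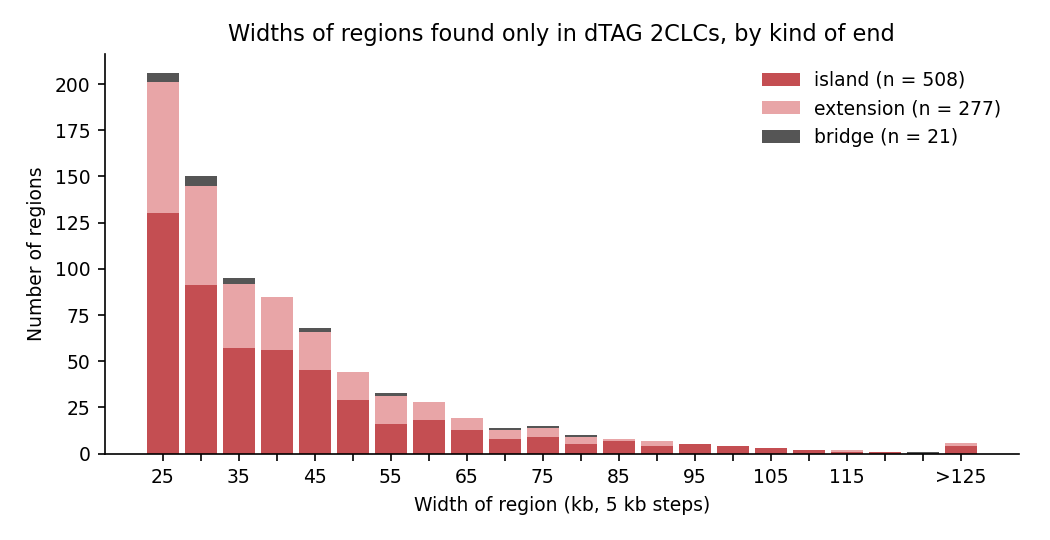
Number of regions (vertical axis) by width in kb in steps of 5 kb (horizontal axis), stacked by kind of end. The 206 regions of 25 kb form the tallest bar, islands (508 regions) make up most of nearly every bar, and only 19 regions reach 100 kb.

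Where a region did run on into a shared domain, the neighbour was most often a domain of mESCs treated with dTAG. The extensions and bridges have 319 shared ends. The base 2.5 kb past such an end lay in a domain of mESCs treated with dTAG at 215 ends (67.4%), of 2CLCs treated with DMSO at 104 (32.6%) and of mESCs treated with DMSO at 88 (27.6%). mESCs treated with dTAG were the sole neighbour at 160 ends, 2CLCs treated with DMSO at 51 and mESCs treated with DMSO at 37, and all 3 sets were present at 17. Over all bases that 2CLC dTAG domains share with any of these sets the shares were nearly equal, 90.2%, 91.1% and 91.9% in that order. Those are shares of bases and not of ends, so they give no background for the ends. For ends, the mirror image was seen in regions found only in mESCs treated with dTAG. Their 269 shared ends lay in 2CLC dTAG domains at 212 (78.8%) and in the DMSO sets at 74 (27.5%, mESCs) and 64 (23.8%, 2CLCs). Regions found only in 2CLCs treated with DMSO were less one-sided. Their 431 shared ends lay in mESC DMSO domains at 213 (49.4%), in 2CLC dTAG domains at 198 (45.9%) and in mESC dTAG domains at 126 (29.2%). The dTAG sets also held more domains, 8281 in 2CLCs and 6770 in mESCs against 3870 in each DMSO set. The part of that difference in these shares was not tested.

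Domains of every set covered a smaller share of the surroundings of the regions than of chromosomes 1 to 19. In the first 5 kb outside a region, 6.02% of bases lay in domains of mESCs treated with DMSO, 6.70% in those of 2CLCs treated with DMSO, 13.9% in those of mESCs treated with dTAG and 19.8% in those of 2CLCs treated with dTAG. In the 5 kb bin centred 197.5 kb away the shares were 25.1%, 23.3%, 22.6% and 28.6% in the same order. Over chromosomes 1 to 19 they were 52.4%, 49.7%, 44.6% and 46.7%. Each sorted set was thus below its own mean at that distance, which is a description. Within 100 kb on both sides, domains of mESCs treated with dTAG covered more than those of mESCs treated with DMSO beside 367 regions and less beside 176, and the other regions were ties. The rule itself places every region outside the other sorted sets, and the values close to 0 kb reflect that choice. Its effect can reach further, because the median domain in either DMSO set is wider than 100 kb. Shares beside other domain-free bases were not measured. The means over chromosomes 1 to 19 therefore give no background for these shares.

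**Figure D2:**
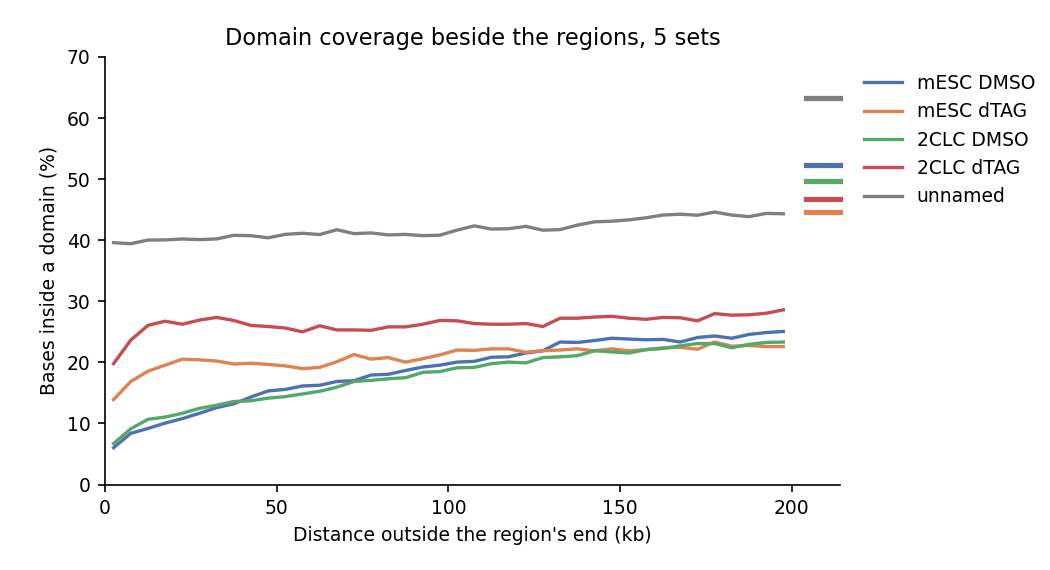
Share of bases inside a domain (vertical axis, %) by distance outside the ends of the 806 regions (horizontal axis, kb), one line per domain set. Short bars at the right mark each set's share over chromosomes 1 to 19, and every line stays below its own bar, for example 25.1% against 52.4% for mESC DMSO. The bars are no background, since the regions were chosen outside domains of the other sorted sets.

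Islands lay outside the domains of the other sorted sets by the rule, so their distances to those domains are a description. No such distances were measured for other domain-free bases. The median distance of islands was 240.0 kb to the nearest domain of mESCs treated with DMSO and 270.0 kb to that of 2CLCs treated with DMSO. It was 105 kb to that of mESCs treated with dTAG. The nearest domain of any of these sets was a median of 80 kb away. It came within 10 kb for 73 islands (14.4%, 11.6 to 17.7) and lay over 100 kb away for 212, up to 1585 kb. The regions themselves were scattered, with a median of 560.0 kb to the next one and 156 regions (19.4%) within 100 kb of another. Every autosome held some. The share of a chromosome inside regions ran from 0.807% on chromosome 15, with 21 regions, to 1.96% on chromosome 18, with 40.

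In gene density the regions lay nearer to the domain-free part of the genome than to the regions found only in DMSO, and they held more repeats than either. They held 422 starts of protein-coding genes, 12.5 per Mb (exact Poisson 95% interval 11.4 to 13.8, for counting error only), against 14.4 per Mb in the 966 Mb outside all 4 sorted sets and 8.45 per Mb over chromosomes 1 to 19. The rate was below that of the domain-free bases on 14 of the 19 chromosomes. Regions found only in mESCs treated with dTAG had 12.4 starts per Mb and those shared by both dTAG sets and absent from both DMSO sets had 12.2, and the rate of the regions lay inside both of those counting intervals (10.4 to 14.5 and 11.0 to 13.4). Regions found only in 2CLCs treated with DMSO had 4.96 (4.18 to 5.86) and those found only in mESCs treated with DMSO 2.74 (2.38 to 3.14). Exons of protein-coding genes made up 4.27% of region bases and their introns 38.8%, compared with 6.82% and 52.9% outside all 4 sorted sets and 3.76% and 36.5% over chromosomes 1 to 19, to which the regions were closer by this measure.

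The median region had a GC content of 43.6% (quartiles 41.8 to 45.5). Taken over all bases the regions were 43.6% GC, lower than the 45.3% of domain-free bases and higher than the 41.9% of chromosomes 1 to 19, and GC was below that of domain-free bases on all 19 chromosomes. Interspersed and low-complexity repeats, which the assembly marks in lower case, filled 33.0% of region bases compared with 25.7% of domain-free bases, and this share was higher in the regions than in domain-free bases on all 19 chromosomes. Over chromosomes 1 to 19 as a whole it was 33.5%, so the regions lay close to the genome average. Regions in domains of both dTAG sets and of neither DMSO set were more repetitive still, with 40.4%. On 0 of the 19 chromosomes did the regions of 2CLCs alone exceed them. The order was the same for 50-mers that recurred on their own chromosome and strand. They made up 6.79% of 50-mers in the regions and 13.9% in regions of both dTAG sets only. The shares were 2.68% in domain-free bases and 7.62% over chromosomes 1 to 19. Whether the reads of these libraries could be placed there was not tested. Over 20% of 50-mers were repeated in 31 regions. Unknown bases (N) filled more than 20% of 4 regions, among them 97.2% of a region of 50 kb on chromosome 5 and 40.4% of the region that holds Ndufa3 and Prpf31. No signal can be read at N, and whether the call bridged those gaps was not tested.

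**Figure D3:**
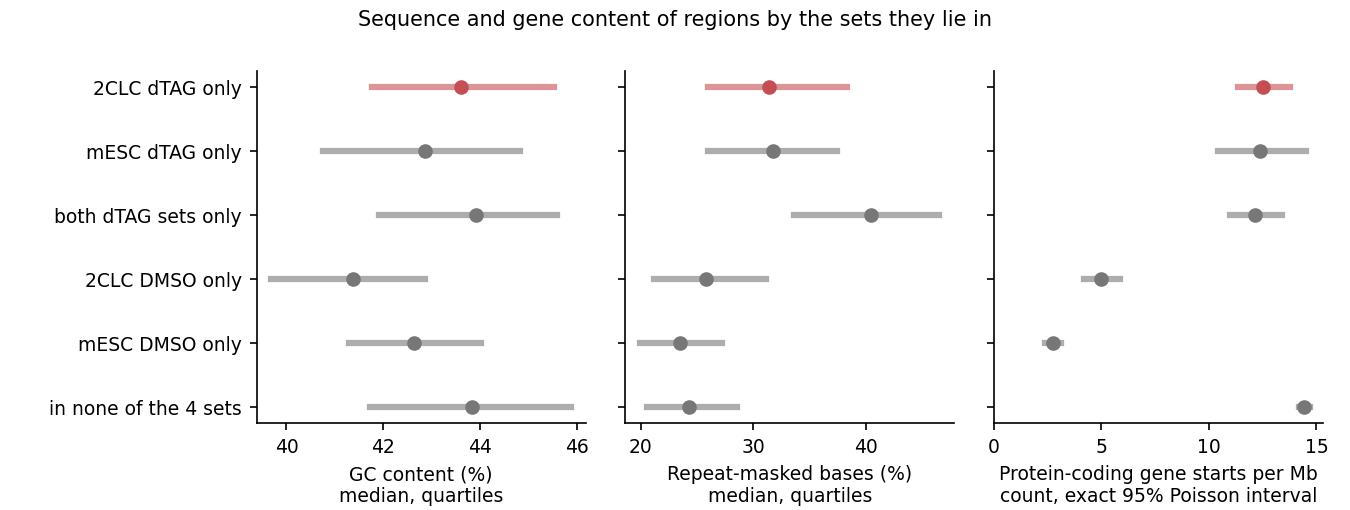
GC content, repeat-masked share (points are medians over regions, bars quartiles) and protein-coding gene starts per Mb (points are rates, bars exact 95% Poisson intervals) for runs of at least 25 kb by the sets they lie in, and for the stretches in none of the 4 sets. The 2CLC dTAG regions (red) sit at 12.5 starts per Mb beside the other regions found only under dTAG. They lie above the DMSO-only regions at 4.96 and 2.74, with a repeat share between the domain-free stretches and the regions of both dTAG sets.

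One deposited domain set carries no cell state or treatment in its name. It was not used to choose the regions, and it offers a separate view of them. It covered 43.6% of region bases, compared with 24.9% of all 1017 Mb outside the other 3 sorted sets, and its share was higher in the regions on all 19 chromosomes. Over chromosomes 1 to 19 as a whole it covered 63.3%. This cover was not particular to the regions. It was 49.1% in regions found only in mESCs treated with dTAG and 45.5% in those of both dTAG sets only. In regions found only in DMSO it was 82.8% for 2CLCs and 96.6% for mESCs. The regions split: 372 (46.2%, 42.7 to 49.6) shared no base with it and 223 lay wholly inside it. The 372 outside it had 17.0 gene starts per Mb (14.9 to 19.3) and a median repeat share of 35.0%, and the 223 inside it had 7.49 (5.77 to 9.57) and 28.7%. Islands made up 69.9% of the former and 58.7% of the latter. Which libraries made this set is not given in the sources used here, so these values are not read as a second measurement of any condition.

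Of the 806 regions, 292 (36.2%, 33.0 to 39.6) held at least 1 start of a protein-coding gene, 12 held 4 or more, and 324 held no gene start of any kind. The 422 genes are 2.03% of the 20807 protein-coding genes on these chromosomes. Counting every annotated gene, 1023 of 51229 starts (2.00%) fell in the regions, with 190 processed pseudogenes and 116 lincRNAs after the protein-coding genes. The regions with the most protein-coding starts held runs of neighbouring genes, some of them of 1 family. An island of 80 kb on chromosome 7 (chr7:4949656-5029655) contained 8 starts, those of the zinc finger genes Zfp579, Zfp524, Zfp865 and Fiz1, the kinase genes Sbk2 and Sbk3, Ccdc106 and Gm44973. The nearest domain of 2CLCs treated with DMSO was 75 kb away and that of mESCs treated with dTAG 85.0 kb. No base of this island lay in the unnamed set.

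An island of 95 kb on chromosome 2 (chr2:121437817-121532815) held 7 starts: the elongation factor gene Ell3, Serinc4, Serf2, Hypk, Wdr76 and the paired copies Mfap1a and Mfap1b. It lay 585 kb or more from any domain of the other sorted sets, and no base within 100 kb on either side was in a domain of any of the 5 sets. Of its 50-mers 26.5% recurred on the chromosome. On chromosome 11 an island of 75 kb (chr11:114999681-115074680) held 6 genes of the Cd300 family of immune receptors, Cd300c2, Cd300e, Cd300ld2, Cd300ld3, Cd300ld4 and Cd300ld5, and 47.8% of its 50-mers were repeated. It ended 10.0 kb from a domain of mESCs treated with dTAG. A second island of 75 kb on chromosome 7 (chr7:16219641-16294640) contained C5ar1 and C5ar2, the receptors of the complement fragment C5a, with the helicase gene Dhx34, Inafm1 and Ccdc9, and lay at least 350.0 kb from the other sets. Only 3.69% of its 50-mers were repeated.

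The widest regions were of several kinds. The widest, an island of 400 kb on chromosome 2 (chr2:151012777-151412776), held the starts of Ninl, which encodes a centrosomal protein, Nanp, a phosphatase of sialic acid synthesis, and the predicted genes Gm14147 and Gm14151, beside 6 snoRNA and 4 lincRNA starts. It lay 270.0 kb or more from the other sorted sets, 50.9% of its bases were repeats and 37.8% of its 50-mers recurred. The second, an island of 220 kb on chromosome 8 (chr8:34962963-35182962), held the start of Tnks, the poly-ADP-ribosyltransferase tankyrase, and 97.2% of its bases lay in the unnamed set, with 1.69% of 50-mers repeated. An extension of 205 kb on chromosome 14 (chr14:53141077-53346075) held no protein-coding start but 21 variable segments of the T cell receptor, and 94.2% of its 50-mers recurred on the chromosome. Regions held 24 of 144 such segments (16.7%), in 2 regions of chromosome 14, against 2.00% of all annotated genes. Such segments started in domains of every sorted set, 90 in 2CLCs and 75 in mESCs treated with dTAG. In the DMSO sets 56 did in 2CLCs and 61 in mESCs. Reads from near-identical copies can be hard to tell apart, and the part of repeated sequence in this call was not tested. An island of 155 kb on chromosome 9 (chr9:109246479-109401478) held the F-box genes Fbxw14 and Fbxw28 with 66.6% of 50-mers repeated. It lay 5.00 kb from domains of both mESC sets.

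Gene lists were then read against the background of 2.03%. Of all 20807 protein-coding genes, 5302 started in domains of 2CLCs treated with dTAG and 4737 in those of mESCs treated with dTAG. Domains of the DMSO sets held 4593 starts in 2CLCs and 4453 in mESCs. These counts are the background for the starts per set given below. Replication-dependent histone genes, which lie in clusters and supply histones in S phase, had 13 of 67 starts in the regions (19.4%, Wilson interval 11.7 to 30.4). All 13 fell in 2 regions of the large cluster on chromosome 13, so they are 2 events rather than 13. An extension of 55 kb (chr13:23567915-23622914) held Hist1h2ae, Hist1h2ad, Hist1h2bg, Hist1h2bf, Hist1h2be, Hist1h3d, Hist1h4d and the linker histone gene Hist1h1e. An extension of 35 kb (chr13:22017918-22052916) held Hist1h2ah, Hist1h2ag, Hist1h2bk, Hist1h2bj and Hist1h4i, which are named here after their values were seen. The first adjoined a domain of mESCs treated with dTAG that ran 45 kb further, and the second adjoined the long domain between the arms of the cluster, which all 4 sorted sets held, in several pieces in mESCs treated with dTAG. Repeated 50-mers made up 5.32% of the first.

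Of the 54 histone genes in the cluster, 22 started inside a domain in 2CLCs treated with dTAG, 6 in mESCs treated with dTAG, and 0 in either DMSO set. The 9 that 2CLC dTAG domains held outside the regions were 6 shared with mESCs treated with dTAG and 3 in a run under 25 kb. The unnamed set held 2 of the 54 starts, and neither was among the 13. In the windows of 300 bases at the 13 histone starts, all of which matched a RefSeq promoter, TATAAA was found on either strand in 10, CCAAT in 12 and the octamer ATGCAAAT in 4. The 3 strings were searched independently of each other. Over all 31396 promoters in the table the shares were 13.6%, 37.3% and 1.75%, and over the 60 histone promoters matched of 67 they were 56.7%, 85.0% and 21.7%. The windows of H2A and H2B pairs overlap, so they are not separate sequences. Of the remaining region genes 283 of 409 matched, and their shares are not compared here.

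**Figure D4:**
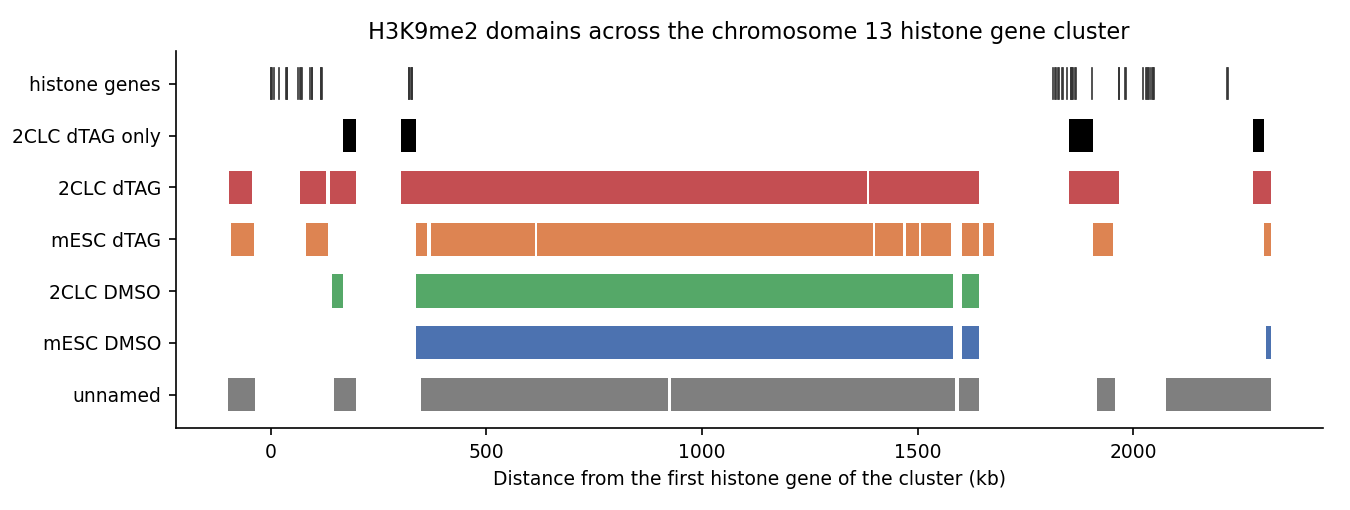
Map of the chromosome 13 histone gene cluster in kb from its first histone gene (horizontal axis), with histone genes as ticks and one row per domain set. The black blocks are regions found only in 2CLCs treated with dTAG, and 2 of the 4 shown cover 13 histone starts, beside the long domain present in all 4 sorted sets.

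Zinc finger genes with Zfp symbols, many of which bind and silence retroelements, had 15 of 385 starts in the regions (3.90%, 2.38 to 6.33), spread over 12 regions. Besides Zfp579, Zfp524 and Zfp865, they included Zfp451 in an island of 60.0 kb on chromosome 1, Zfp760 and Zfp229 in an extension of 60.0 kb on chromosome 17, and Zfp512 and Zfp961 in regions of 55 kb on chromosomes 5 and 8. Many more Zfp starts lay in domains of both dTAG sets, 162 in 2CLCs and 156 in mESCs, against 70 and 73 in the DMSO sets. Spliceosome genes had 3 of 77 (3.90%, 1.33 to 10.8), namely Prpf31, Lsm5 and Prpf38b. For both lists the share was above the background, with so few genes that the spliceosome interval includes it. The Zfp interval counts the 15 starts as independent, although some shared a region, such as Zfp579, Zfp524 and Zfp865. Neither share was tested against the background.

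Other lists were near or below the background. Mitochondrial ribosomal and respiratory chain genes had 3 of 170 (1.76%), Ndufa3 and the neighbours Mrpl47 and Ndufb5. The germline list had 1 of 43 (2.33%), Tex101, a germ cell surface protein, the proteasome list 1 of 48 (2.08%), the activator gene Psme4, and the cytochrome P450 list 2 of 99 (2.02%), Cyp20a1 and Cyp21a1. The serpin list had 1 of 60 (1.67%), Serpinb1c, the cytosolic ribosomal proteins 1 of 72 (1.39%), Rps23, and the keratin list 1 of 113 (0.885%), Krtap28-10. Domains of mESCs treated with DMSO held 61 of the 99 cytochrome P450 starts and 43 of the 60 serpin starts. The rule bars such starts from the regions, so the shares of both lists were largely set in advance and are not a result. Olfactory receptor genes had 8 of 1128 (0.709%, 0.360 to 1.39), in 4 regions: Olfr286, Olfr1368, Olfr328, Olfr329-ps, Olfr224, Olfr325, Olfr1415 and Olfr1416. That low share goes with 977 of the 1128 starts in domains of 2CLCs treated with dTAG and 1010 in those of mESCs treated with DMSO. The rule bars the latter from the regions.

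No start of 9 lists fell in a region. Of 47 genes of the 2-cell programme, 38 started in domains of 2CLCs treated with dTAG, 38 in those of 2CLCs treated with DMSO, and 35 in those of mESCs treated with DMSO. The vomeronasal receptors (0 of 327) and the defensins (0 of 64) likewise had most of their starts inside domains in each of the 4 sorted sets. Pluripotency genes (0 of 33), germ layer genes (0 of 29), retinoic acid genes (0 of 29), H3K9 methylation genes (0 of 36) and Hox genes (0 of 39) were mostly outside every set, with at most 4 starts of any of these lists in a sorted set. Clustered protocadherin genes (0 of 57) had 23 starts in domains of 2CLCs treated with dTAG, 29 in mESCs treated with dTAG, and 6 and 12 in the DMSO sets of 2CLCs and mESCs. The rule bars from the regions any start in a domain of another sorted set. Of the 327 vomeronasal starts, 326 lay in domains of 2CLCs treated with DMSO, so their 0 was nearly fixed in advance. The same holds in part for the 2-cell, defensin and protocadherin lists, and no interval is read for these 4 lists. For the shortest lists, mostly outside every set, a count of 0 allows up to 11.7%.

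**Figure D5:**
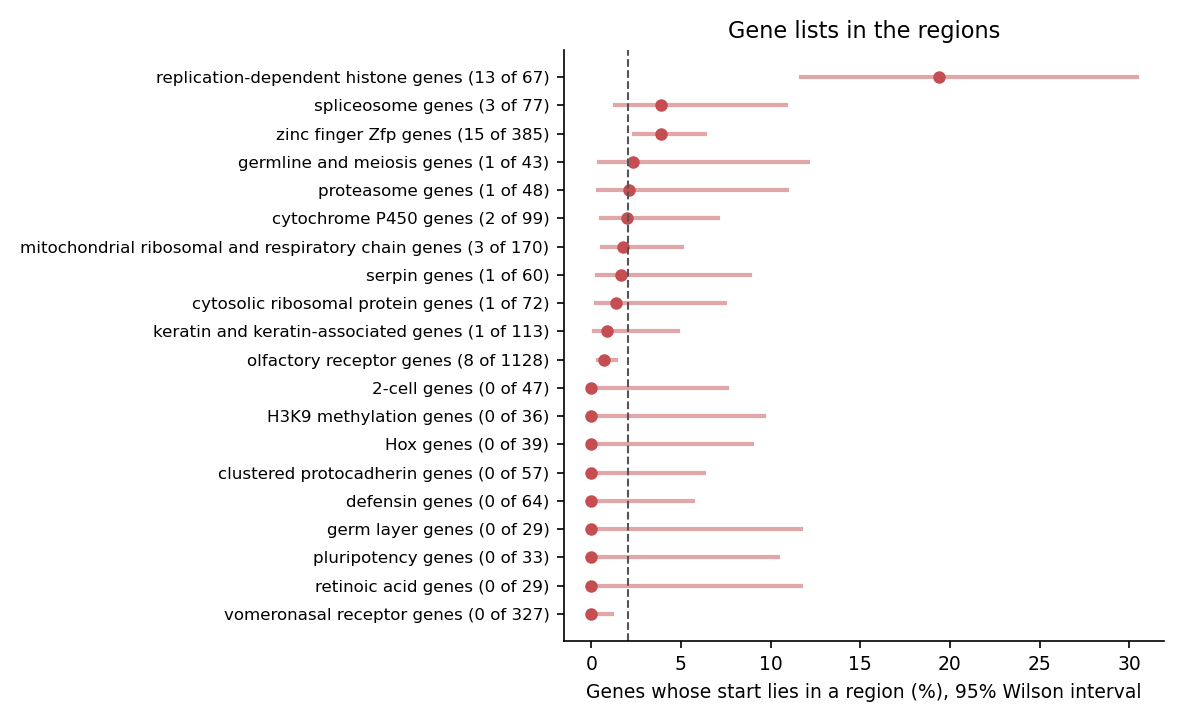
Share of each gene list whose start lies in a region (horizontal axis, %, points) with 95% Wilson intervals (bars) and the share of all protein-coding genes, 2.03%, as a dashed line. Histone genes stand at 19.4% from 2 regions, Zfp and spliceosome genes at 3.90%, and the other lists near or below the line. The rule bars starts in domains of the other sorted sets, so low shares of lists with many such starts are not a result.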

How the data were processed

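H3K9me2 was measured by ULI-NChIP in sorted mESCs and 2CLCs after DMSO or dTAG-13, with 3 immunoprecipitation and 3 input libraries per condition, which were grouped by their titles. The methods of the study describe alignment to mm10, filtering, scaling of coverage to genome content, averaging in overlapping windows on a 5 kb grid and, for each bin, a log2 ratio of immunoprecipitation over input. Bins with a ratio past an upper percentile seeded the domains, which grew in both directions up to the first bin under a lower percentile. Pooling of replicates before this step is not stated, nor is whether percentiles were common to all conditions. The submitters' processing notes name STAR 2.7.10, Picard 2.26.0, SAMtools 1.14, bedtools 2.30.0, deepTools 3.5.1 and R 4.1.2. The files the authors deposited hold domain starts and ends with a placeholder score of 0 for every domain, so they carry no level of the mark and no depth. Of the 5 sets, 4 name a cell state and treatment, and the remaining set names neither.

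The steps on the deposited positions used Python 3.11.15 with numpy 2.4.6 and scipy 1.17.1. The interval arithmetic was tested on simulated intervals. Genes came from GENCODE M21, composition from GRCm38.p6 and promoters from RefSeq, matched by symbol or synonym within 1000 bases of the GENCODE start. Shares have Wilson 95% intervals and gene rates exact Poisson 95% intervals. The regions and the 20 gene lists were chosen with earlier results of these data known. Named regions were the 5 widest and the 5 with the most protein-coding starts, with up to 8 genes each, and up to 8 genes per list by region width. One of the widest is not reported here. Promoters printed were those nearest the centre of the 4 regions with the most starts, 1 per chromosome and none from chromosome 18, and the gene in the widest region of each list with at least 3 starts. No test was made, since each condition has a single set. Alternatives changed the minimum run, the merging distance, the minimum domain width, the margin of the removed sets, the removed sets, the chromosomes, the repeated regions and the gene definition.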

Additional observations from a re-analysis of the deposited data

Results flagged for a closer look

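Chromosome X was outside the rule that chose the regions. The same rule applied there gave 38 runs of at least 25 kb with 1.81 Mb, or 1.06% of the chromosome, the widest of 260.0 kb, and they held 18 protein-coding gene starts. Runs found only in 2CLCs treated with DMSO numbered 76 on X (3.65 Mb) and those found only in mESCs treated with DMSO 20. These counts were set side by side without a test.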

How the results depend on the processing

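Each result was recomputed under 7 to 10 alternatives and without each chromosome in turn, and leaving out a chromosome moved none of the 8 results beyond its counting interval (1.5 times for the number and length). With runs of at least 50 kb, taken to the base, there were 200 regions with 14.2 Mb and a median of 60.0 kb, and with runs of at least 10 kb there were 1744 with a median of 20.0 kb, 46.5% islands and a median repeat share of 30.5%. Domains of at least 50 kb alone gave a median width of 55 kb, 58.4% islands, 43.1% GC and 33.3% repeats. Widening the other sets by 5 kb gave 68.8% islands and 32.2% repeats. Removing the unnamed set too left 434 regions with 17.5 Mb, 16.4 gene starts per Mb, 43.9% GC and 34.1% repeats. All annotated genes gave 30.3 starts per Mb, and gene bodies 22.5 per Mb. Except for the new filters themselves, the cause was not tested. A minimum of 24 kb, added after seeing the data because 10 runs were 1 base short, gave 816 regions. No paired analysis was possible because the deposited sets hold no values per replicate. The regions rest on 1 domain set per condition whose depth and pooling are unknown, so how many would recur in another culture could not be assessed.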
